A study of Homo sapiens with 9 samples.

Results

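Box C/D small nucleolar RNA (snoRNA) genes were taken from a gene count table of MOLM13 cells in which the RNA helicase DDX41 had been knocked down. Every row whose symbol starts with SNORD and whose raw counts summed to at least 30 over the 9 libraries was a member. The table listed 30017 genes, 277 of them SNORD rows, and 117 of these met the rule. Of the other SNORD rows, 106 were at 0 in all libraries and 54 summed to 1 to 29 counts. Since the sum over all libraries chose the members, their levels are given as a description, and what was tested was the difference between groups. SNORD116-13, with counts of 5, 6 and 0 in sh-Control, 5, 3 and 4 in Sh-DDX41_1 and 1, 4 and 2 in Sh-DDX41_2, lay on the limit with a sum of 30. SNORD67 lay just outside with a sum of 28.

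Box C/D snoRNAs are short RNAs named after conserved sequence motifs near their ends, the C box and the D box. They assemble with the methyltransferase fibrillarin and with NOP56, NOP58 and the 15.5K protein, and most of them pair with ribosomal RNA (rRNA) and direct ribose methylation at the paired site. A few act in the cleavage of the precursor of rRNA instead. In human cells most are not transcribed from promoters of their own but are released by exonucleases from introns of host genes after splicing, and 1 intron usually holds 1 snoRNA. Many hosts encode ribosomal proteins or other parts of the translation machinery, while others, the small nucleolar RNA host genes (SNHG) and GAS5, have no known protein product.

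MOLM13 is a human cell line of acute myeloid leukemia that carries monocytic features. Cells were transduced with pLKO-GFP lentivirus carrying a control hairpin RNA (sh-Control) or 1 of 2 hairpins against DDX41 (Sh-DDX41_1 and Sh-DDX41_2) and were sorted on day 4. The groups held 3 libraries each, labelled A, B and D, and all 9 libraries came from this 1 line and carried a hairpin. The labels do not say whether the libraries of a group came from separate cultures. The study's statistical methods speak of biological replicates for its assays in general, without naming these libraries, so the p-values here measure the spread between libraries and part of it may be technical. Mean DDX41 was 115 ± 1.76 CPM, the count relative to the scaled library total (SD, n = 3), in sh-Control, 11.7 ± 1.56 in Sh-DDX41_1 and 40.4 ± 1.85 in Sh-DDX41_2, so residual DDX41 was lowest with Sh-DDX41_1. The libraries held 16385238 to 20510032 counts. All 10 of 10 myelomonocytic marker genes were tested, and their summed CPM was 2564 to 2755, 2619 to 2715 and 3485 to 3542 in the 3 groups, in the order sh-Control, Sh-DDX41_1, Sh-DDX41_2. The higher sum in Sh-DDX41_2, which did not overlap with the other groups, came mainly from LYZ, lysozyme (877, 931 and 987 CPM in sh-Control, 859, 838 and 915 in Sh-DDX41_1 and 1833, 1827 and 1795 in Sh-DDX41_2). LYZ, MPO and PTPRC rose with Sh-DDX41_2 (log2 fold changes 0.96, 0.59 and 0.18, adjusted p = 1.6e-07, 2.8e-05 and 0.0385), and the other 7 markers did not pass the test. With Sh-DDX41_1, CD33, HOXA9 and FLT3 rose (log2 fold changes 0.245, 0.244 and 0.204, edgeR adjusted p = 0.00462, 0.0175 and 0.0204). CSF1R and MEIS1 fell there (−0.861 and −0.259, adjusted p = 3.8e-05 and 0.00435), and the remaining markers did not pass. The sum does not show these opposite changes of the markers. Their part in the results was not tested. All 4 erythroid markers were at 0 counts. Of the epithelial markers, KRT18 had mean CPM of 15.5, 14.6 and 15.3 in the 3 groups and did not pass. KRT8, at 1.69, 2.61 and 3.38, rose with both hairpins (log2 fold changes 0.626 and 1.00, edgeR adjusted p = 0.0261 and 0.00271). The T cell marker CD3D fell with Sh-DDX41_1 (−1.25, adjusted p = 0.00877) and did not pass with Sh-DDX41_2. The B cell marker CD79A did not pass with either. The other markers on these lists were too low for the test.

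Members of the SNORD14 and SNORD88 families of related copies, neighbours in SNHG1 and a few other members are shown with their sequences. The coordinates are those of GENCODE 29 on GRCh38 (hg38). Capitals mark TGATG within the first 20 bases, the core of the C box, and CTGA within the last 20 bases, the D box. The SNORD14 copies lie in introns of RPS13 (SNORD14A at chr11:17074654-17074744, SNORD14B at chr11:17075779-17075868) and of HSPA8 (SNORD14C at chr11:123059335-123059422, SNORD14D at chr11:123058909-123058995, SNORD14E at chr11:123058077-123058161), all on the minus strand. They are shown because 3 related copies share the host HSPA8 and 1 of them, SNORD14E, passed the test for a rise with Sh-DDX41_1.
SNORD14A: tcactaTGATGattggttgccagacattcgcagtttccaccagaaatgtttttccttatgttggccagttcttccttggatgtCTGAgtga
SNORD14B: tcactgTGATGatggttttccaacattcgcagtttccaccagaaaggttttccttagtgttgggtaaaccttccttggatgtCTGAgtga
SNORD14C: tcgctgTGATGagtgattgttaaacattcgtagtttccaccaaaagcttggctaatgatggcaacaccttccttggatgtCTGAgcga
SNORD14D: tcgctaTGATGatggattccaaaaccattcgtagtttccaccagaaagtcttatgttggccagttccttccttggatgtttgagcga
SNORD14E: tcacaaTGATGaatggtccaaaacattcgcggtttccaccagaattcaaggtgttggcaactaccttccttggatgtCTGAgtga
Over the 5 copies, pairwise identity ranged from 74.7% to 85.9%, so that reads from short stretches may fit more than 1 copy.

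The SNORD88 copies lie in C19orf48 on the minus strand of chromosome 19 (SNORD88A at chr19:50799442-50799532, SNORD88B at chr19:50799032-50799122, SNORD88C at chr19:50802328-50802418) and are shown as related copies of 1 host.
SNORD88A: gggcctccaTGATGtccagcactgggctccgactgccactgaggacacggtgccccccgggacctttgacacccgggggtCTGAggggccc
SNORD88B: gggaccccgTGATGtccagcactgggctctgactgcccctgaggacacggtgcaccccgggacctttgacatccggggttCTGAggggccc
SNORD88C: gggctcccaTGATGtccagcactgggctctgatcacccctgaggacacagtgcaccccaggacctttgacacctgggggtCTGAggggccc
Their pairwise identity was 87.9% to 91.2%.

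In SNHG1, SNORD25 (chr11:62855564-62855632, minus strand), SNORD26 (chr11:62855292-62855366) and SNORD27 (chr11:62855012-62855083) lie side by side in neighbouring introns and are shown because SNORD25 rose and SNORD27 fell with Sh-DDX41_1.
SNORD25: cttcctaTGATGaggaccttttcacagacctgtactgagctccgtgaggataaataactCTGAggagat
SNORD26: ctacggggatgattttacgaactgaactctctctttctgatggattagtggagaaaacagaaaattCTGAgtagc
SNORD27: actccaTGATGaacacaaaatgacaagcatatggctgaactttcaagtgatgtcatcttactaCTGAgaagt
SNORD32A (chr19:49489965-49490048, plus strand) and SNORD35A (chr19:49491175-49491260, plus strand) stand for the RPL13A cluster, and SNORD72 (chr5:40832656-40832735, minus strand) is the member with no count in any sh-Control library.
SNORD32A: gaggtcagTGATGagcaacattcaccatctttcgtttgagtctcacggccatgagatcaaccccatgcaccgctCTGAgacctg
SNORD35A: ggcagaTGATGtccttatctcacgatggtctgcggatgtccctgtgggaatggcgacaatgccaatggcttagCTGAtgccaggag
SNORD72: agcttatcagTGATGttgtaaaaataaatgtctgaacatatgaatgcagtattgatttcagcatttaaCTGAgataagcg
Among the 102 members with a GENCODE entry, TGATG and CTGA were both found in these windows of 91 (89.2%), against 80.2% of all 278 GENCODE genes with a SNORD symbol. SNORD14D lacks CTGA and SNORD26 lacks TGATG in these windows. The search was on the RNA strand only.

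The counts behind each member were low. Sums over the 9 libraries ran from 30 to 1112 with a median of 157, and no member exceeded 167 counts in a library. Of the 1053 single values, 381 (36.2%) were under 10 counts and 20 were 0. Counting error exceeds the biological coefficient of variation over all genes, 0.0768, for any gene under 170 counts, which covers every member. The libraries were made from poly(A)-selected RNA, and a read in a SNORD row can come from the mature snoRNA or from unspliced host RNA. These 2 sources cannot be told apart, nor can fewer molecules per cell and fewer cells that carry them. Sequences were placed in hosts by annotation, and 116 of the 117 members lay in 52 hosts. Of these, 36 lay in 16 ribosomal protein genes, 38 in other protein-coding genes and 42 in non-coding genes. SNORD3A, the U3 RNA of precursor rRNA cleavage, had no host.

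With Sh-DDX41_1, box C/D snoRNA counts were mostly higher than in sh-Control. By edgeR's quasi-likelihood test with Benjamini-Hochberg adjustment, 62 of the 117 members (53.0%) rose and 1 fell, SNORD27, at an adjusted p under 0.05, while 31 were tested and not called and 23 had too few counts for the test. As a share of the members tested, 66.0% rose and 1.06% fell. Of all 12712 genes tested, 23.7% rose and 24.1% fell. Of the 94 members tested, 30 passed the filter on low counts only through the Sh-DDX41_1 libraries, and among the 64 that pass without these libraries 34 rose and 1 fell. When all 13850 genes with at least 30 counts were tested instead, a filter chosen after seeing the data that leaves no member out, 69 members (59.0%) rose and 1 fell, against 22.1% and 22.0% of all genes. Members chosen by at least 30 counts over the sh-Control and Sh-DDX41_2 libraries alone, also after seeing the data, numbered 89, of which 51 rose (57.3%, against 22.4% of all genes) and 1 fell. Over all 117 members the median log2 fold change was 1.09, that of all genes 0.02, and 99 members had a positive and 18 a negative value. The libraries of 67 members lay higher without overlap and those of 7 lower (25.5% and 25.0% of all genes), and those of 43 overlapped. Asking for a change of at least 2-fold as well, 49 members rose and 1 fell, against 3.6% and 3.12% of all genes. Only 39 members had at least 10 counts in every library, and with this filter 20 rose and 1 fell, against 25% and 25.1% of all genes.

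With Sh-DDX41_2 no such rise was seen. Of the 94 members tested 16 (17.0%, or 13.7% of all 117 members) fell against sh-Control, against 13.4% of all genes tested. Of these members 0 rose, against 11.6% of all genes. At an unadjusted p under 0.05, edgeR gave 2 higher members, SNORD72 and SNORD95, while DESeq2 called 0 higher at its adjusted p and limma voom 1, SNORD72. The members that fell were SNORD14C and SNORD14D of HSPA8, SNORD22, SNORD31, SNORD30, SNORD29 and SNORD25 of SNHG1, SNORD35A of RPL13A, SNORD58A of RPL17, SNORD4A of RPL23A, SNORD36A of RPL7A, SNORD102 of RPL21, SNORD47 of GAS5, SNORD104 of SNHG25, SNORD93 of SNHG26 and SNORD87 of SNHG6. Single libraries decided how many fell. The number was 22, 4 and 10 without sh-Control A, B and D, and 10, 4 and 8 without Sh-DDX41_2 A, B and D. With the filter of 30 counts over the 9 libraries 17 members fell (14.5%, against 11.9% of all genes) and 0 rose (against 10.9%), and the median log2 fold change over all 117 was −0.45, with 27 positive and 90 negative. The libraries of 30 members lay lower without overlap and those of 2 higher (21.4% and 20.1% of all genes). A fall of at least 2-fold passed the test for 5 members, SNORD14C, SNORD4A, SNORD58A, SNORD35A and SNORD93 (0.936% of all genes), and a rise of that size for 0 (1.53% of all genes).

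The hairpins were also compared with each other. Between Sh-DDX41_1 and Sh-DDX41_2, 69 members were higher with Sh-DDX41_1, 59.0% of all 117 and 73.4% of the 94 tested. In the other direction 1, SNORD27, was lower. Of all genes tested 24.6% were higher and 24.2% lower. The call of SNORD27 was lost with DESeq2 and without some single libraries. With the filter of 30 counts over the 9 libraries 79 were higher (67.5%, against 22.4%), and among the 89 members chosen without the Sh-DDX41_1 libraries 59 were higher (66.3%, against 22.7%). The median log2 fold change over all 117 members was 1.44, with 108 positive and 9 negative. No overlap was seen for 85 members higher with Sh-DDX41_1 and 2 lower (27.8% and 27.1% of all genes). At least 2-fold and past the test, 65 were higher and 0 lower, against 3.44% and 3.12% of all genes. The 3 comparisons share their groups of libraries, so they are not independent of each other.

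Members of ribosomal protein hosts rose in the largest share with Sh-DDX41_1. Of their 36 members 32 were tested and 29 rose, with a median log2 fold change over all 36 of 1.49. Of the 38 in other protein-coding hosts, 29 were tested and 18 rose (median 1.11), and of the 42 in non-coding hosts 32 were tested, 15 rose and 1 fell (median 0.52). Of all genes tested 23.7% rose and 24.1% fell. Members that passed the filter only through the Sh-DDX41_1 libraries had to be higher there, so the classes were also counted among members chosen without those libraries. Then 22 of 26 members in ribosomal protein hosts rose, 16 of 30 in other protein-coding hosts and 13 of 32 in non-coding hosts, where 1 fell, against 22.4% and 23.0% of all genes. The summed CPM of the ribosomal protein class went from 31.6 ± 4.30 in sh-Control to 83.2 ± 7.0 with Sh-DDX41_1, a ratio of 2.64, and that of the non-coding class from 73.6 ± 16.8 to 99.6 ± 7.76, a ratio of 1.35. With Sh-DDX41_2 the sums were 22.6 ± 1.71 and 48.8 ± 3.44. The other protein-coding class went from 35.9 ± 5.08 to 70.5 ± 8.93 with Sh-DDX41_1 and 29.4 ± 1.37 with Sh-DDX41_2. The difference between the classes was not tested, since members of 1 host are not independent.

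**Figure D1:**
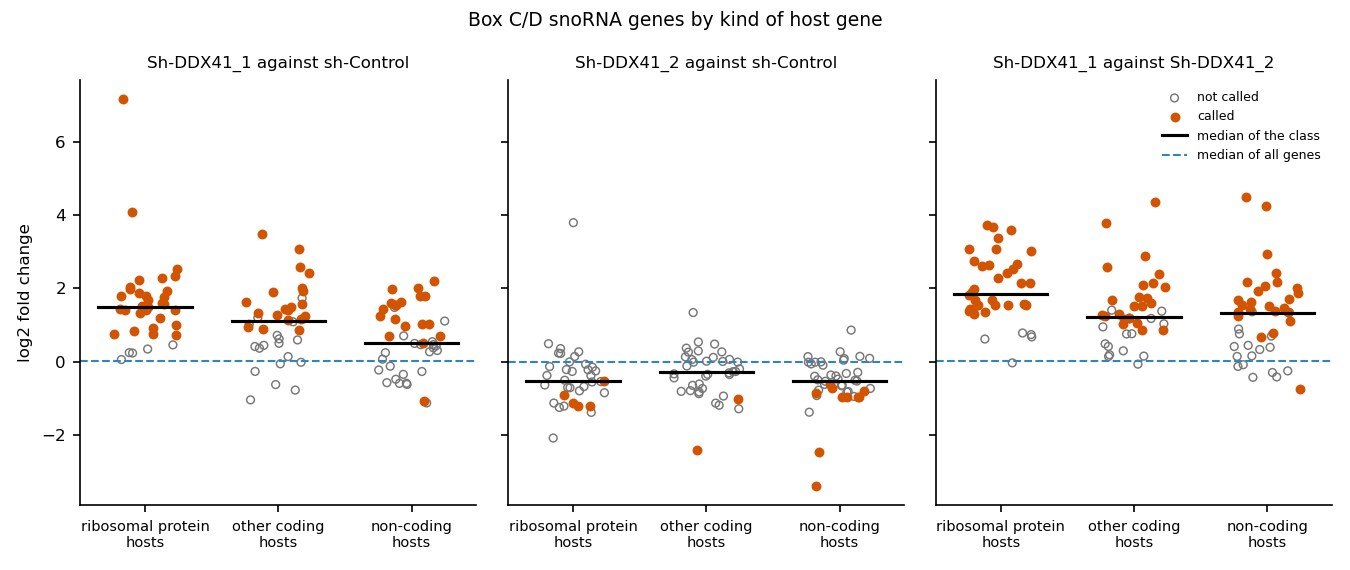
Log2 fold change of the 116 members with a host (points, filled where called) by kind of host gene in the 3 comparisons, from the edgeR fit on all genes with at least 30 counts; black bars are class medians and the dashed line is the median of all genes. With Sh-DDX41_1 the class medians are 1.49, 1.11 and 0.52 and with Sh-DDX41_2 all 3 lie under 0; the fitted value of SNORD72, the highest point in the first 2 panels, depends on the prior count because sh-Control held 0 counts.

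In what follows, the 3 values given for a group are the raw counts of libraries A, B and D in this order, and whether groups overlap was judged on CPM. Of the members named by the rule given with the processing, 21 passed the filter only because of the Sh-DDX41_1 libraries, so that they had to be higher there to be tested. These were SNORD46, SNORD74, SNORD15A, SNORD15B, SNORD6, SNORD14E, SNORD18C, SNORD42B, SNORD4B, SNORD58C, SNORD33, SNORD88C, SNORD12B, SNORD83B, SNORD83A, SNORD19, SNORD72, SNORD95, SNORD100, SNORD93 and SNORD36C. The same limit holds for SNORD34 and SNORD88A, which were described outside that rule. RPL13A, a protein of the large ribosomal subunit, hosts 4 members, several of them known from studies of lipid stress. SNORD35A, a guide for large-subunit rRNA, had counts of 12, 21 and 20 in sh-Control, 91, 108 and 83 in Sh-DDX41_1 and 8, 8 and 8 in Sh-DDX41_2. The 3 groups did not overlap, with the log2 fold change at 2.53 (SE 0.23, adjusted p = 5.3e-07) for Sh-DDX41_1 and −1.15 (SE 0.337, adjusted p = 0.0214) for Sh-DDX41_2. The latter call of SNORD35A was lost without sh-Control B or D or Sh-DDX41_2 A or B (log2 fold change −1.14 to −0.97). SNORD32A, which pairs with both rRNAs, had counts of 16, 21 and 20 in sh-Control, 74, 97 and 83 in Sh-DDX41_1 and 11, 14 and 8 in Sh-DDX41_2. It rose with Sh-DDX41_1 (log2 fold change 2.28, SE 0.218, adjusted p = 9.5e-07), and its Sh-DDX41_2 libraries lay under all sh-Control libraries without passing the test (log2 fold change −0.80, adjusted p = 0.0603). SNORD33, a guide for small-subunit rRNA, had counts of 7, 12 and 10 in sh-Control, 29, 34 and 42 in Sh-DDX41_1 and 10, 7 and 3 in Sh-DDX41_2. All Sh-DDX41_1 libraries were above the rest (log2 fold change 1.97, SE 0.334, adjusted p = 0.00021), while the other groups overlapped. SNORD34, with counts of 4, 7 and 15 in sh-Control, 18, 36 and 13 in Sh-DDX41_1 and 10, 11 and 4 in Sh-DDX41_2, rose by a log2 fold change of 1.48 (adjusted p = 0.0178) although its Sh-DDX41_1 and sh-Control libraries overlapped. RPL13A itself rose less, by a log2 fold change of 0.85 (adjusted p = 2.3e-05) with Sh-DDX41_1. Within this cluster the log2 ratio of SNORD35A to SNORD32A counts overlapped between all 3 groups, so no shift between these members was seen.

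RPL23A hosts 4 members that guide methylation of small-subunit rRNA. SNORD42B was near the floor in sh-Control, with counts of 1, 1 and 1, and reached 16, 19 and 17 in Sh-DDX41_1 against 1, 3 and 0 in Sh-DDX41_2. From these 52 against 3 counts, the CPM ratio of Sh-DDX41_1 to sh-Control was 18.96 (95% exact interval 6.14 to 94.9, counting error only, edgeR adjusted p = 4.2e-05). SNORD4A had counts of 18, 21 and 21 in sh-Control, 62, 51 and 46 in Sh-DDX41_1 and 11, 8 and 7 in Sh-DDX41_2, and its 3 groups did not overlap. It rose with Sh-DDX41_1 (log2 fold change 1.53, SE 0.237, adjusted p = 9.5e-05) and fell with Sh-DDX41_2 (log2 fold change −1.21, SE 0.316, adjusted p = 0.0115). Without Sh-DDX41_2 B the fall of SNORD4A no longer passed (log2 fold change −1.09). Its near copy SNORD4B had counts of 3, 3 and 5 in sh-Control, 12, 24 and 12 in Sh-DDX41_1 and 2, 1 and 1 in Sh-DDX41_2, and rose with Sh-DDX41_1 by a log2 fold change of 2.22 (adjusted p = 0.00121). The ratio of SNORD4A to SNORD4B overlapped between all groups. RPL23A itself changed by 0.45 (adjusted p = 0.00106) and 0.12 (adjusted p = 0.358) on the log2 scale with the hairpins in turn.

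SNORD55, SNORD46 and SNORD38B guide methylation of large-subunit rRNA. SNORD55 had counts of 45, 30 and 25 in sh-Control, 103, 97 and 116 in Sh-DDX41_1 and 33, 21 and 17 in Sh-DDX41_2. Its Sh-DDX41_1 libraries stood apart (log2 fold change 1.78, SE 0.235, adjusted p = 2.2e-05) and the others overlapped. SNORD46 had counts of 8, 7 and 3 in sh-Control, 28, 37 and 19 in Sh-DDX41_1 and 5, 3 and 3 in Sh-DDX41_2, and rose by a log2 fold change of 2.32 (SE 0.399, adjusted p = 0.00023), and it entered the test only through the Sh-DDX41_1 libraries. SNORD38B, with counts of 12, 14 and 13 in sh-Control, 33, 29 and 34 in Sh-DDX41_1 and 6, 13 and 5 in Sh-DDX41_2, had 3 groups that did not overlap, at a log2 fold change of 1.42 (SE 0.294, adjusted p = 0.00107) for Sh-DDX41_1 and −0.72 (adjusted p = 0.176) for Sh-DDX41_2. The second of these did not pass the test.

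In RPL7A all 4 members were tested and 3 rose with Sh-DDX41_1, 1 of them in the pair described. SNORD36A, a guide for small-subunit rRNA, had counts of 76, 99 and 93 in sh-Control, 129, 160 and 127 in Sh-DDX41_1 and 73, 70 and 44 in Sh-DDX41_2, which did not overlap. It rose by a log2 fold change of 0.76 (SE 0.165, adjusted p = 0.00153) with Sh-DDX41_1 and fell at one of −0.54 (SE 0.181, adjusted p = 0.0392) with Sh-DDX41_2. Leaving out sh-Control B or D or Sh-DDX41_2 B or D ended the call of this fall (log2 fold change −0.57 to −0.41), as did upper quartile scaling (−0.51). SNORD36C, a guide for large-subunit rRNA, had counts of only 7, 8 and 21 in sh-Control, 13, 17 and 15 in Sh-DDX41_1 and 12, 10 and 9 in Sh-DDX41_2, and its log2 fold change of 0.45 did not pass the test (adjusted p = 0.359). At these counts a difference from SNORD36A was not detectable, and the ratio of the pair overlapped between sh-Control and Sh-DDX41_1 and not between the hairpins.

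RPS13, a small-subunit protein, hosts SNORD14B and SNORD14A, copies of the U14 RNA that acts in small-subunit rRNA processing and methylation. SNORD14B had counts of 23, 37 and 33 in sh-Control, 102, 110 and 110 in Sh-DDX41_1 and 28, 23 and 29 in Sh-DDX41_2, a log2 fold change of 1.92 (SE 0.204, adjusted p = 2.7e-06) with Sh-DDX41_1. SNORD14A, with counts of 8, 14 and 16 in sh-Control, 25, 43 and 19 in Sh-DDX41_1 and 10, 11 and 11 in Sh-DDX41_2, rose by a log2 fold change of 1.32 (adjusted p = 0.00666). Both lay above the other groups in every Sh-DDX41_1 library, and their ratio overlapped between the groups.

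Single members of ribosomal protein hosts included one with no count in sh-Control. SNORD72, in RPL37 and a guide for large-subunit rRNA, had counts of 0, 0 and 0 in sh-Control, 24, 12 and 14 in Sh-DDX41_1 and 3, 1 and 1 in Sh-DDX41_2. Taking 3 counts over the sh-Control group as the floor, its mean CPM was at least 18.2-fold higher with Sh-DDX41_1 (edgeR adjusted p = 5.5e-05). The fitted fold change of SNORD72 depends on the prior count and is not given. SNORD68, in RPL13, had counts of 26, 15 and 32 in sh-Control, 65, 73 and 61 in Sh-DDX41_1 and 27, 36 and 23 in Sh-DDX41_2, a log2 fold change of 1.57 (SE 0.236, adjusted p = 7.1e-05) with Sh-DDX41_1. SNORD54, in RPS20, had counts of 30, 45 and 33 in sh-Control, 81, 106 and 82 in Sh-DDX41_1 and 29, 35 and 20 in Sh-DDX41_2, a log2 fold change of 1.44 (SE 0.214, adjusted p = 6.7e-05). Both were higher in every Sh-DDX41_1 library than in any other. SNORD102, in RPL21, rose with Sh-DDX41_1 (log2 fold change 0.76, adjusted p = 0.0282) and fell with Sh-DDX41_2 (−0.92, adjusted p = 0.0427), with counts of 22, 33 and 28 in sh-Control, 35, 48 and 46 in Sh-DDX41_1 and 10, 15 and 19 in Sh-DDX41_2.

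The remaining pairs of ribosomal protein hosts were lower in count. In RPL3, SNORD83B had counts of 10, 4 and 10 in sh-Control, 19, 16 and 15 in Sh-DDX41_1 and 9, 6 and 5 in Sh-DDX41_2 (log2 fold change 1.18 with Sh-DDX41_1, adjusted p = 0.0181). Its neighbour SNORD83A had counts of 5, 7 and 8 in sh-Control, 16, 24 and 12 in Sh-DDX41_1 and 0, 5 and 4 in Sh-DDX41_2 (log2 fold change 1.49, adjusted p = 0.0176). Both were higher in every Sh-DDX41_1 library than in sh-Control. In RPL4, SNORD16 had counts of 21, 15 and 34 in sh-Control, 34, 48 and 33 in Sh-DDX41_1 and 35, 29 and 19 in Sh-DDX41_2 (log2 fold change 0.85, adjusted p = 0.0272), and SNORD18C counts of 5, 14 and 12 in sh-Control, 25, 35 and 27 in Sh-DDX41_1 and 7, 10 and 7 in Sh-DDX41_2 (log2 fold change 1.60, adjusted p = 0.00125). In RPS3, SNORD15B had counts of 1, 8 and 10 in sh-Control, 21, 14 and 21 in Sh-DDX41_1 and 7, 6 and 6 in Sh-DDX41_2 (log2 fold change 1.67, adjusted p = 0.0076), and SNORD15A counts of 4, 4 and 4 in sh-Control, 14, 11 and 16 in Sh-DDX41_1 and 0, 3 and 2 in Sh-DDX41_2 (log2 fold change 1.87, adjusted p = 0.0046). These 4 genes all rose with Sh-DDX41_1, without overlap with sh-Control.

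RPS12 and RPL17 also hold 2 members each. SNORD101 had counts of 20, 26 and 24 in sh-Control, 49, 44 and 35 in Sh-DDX41_1 and 17, 18 and 13 in Sh-DDX41_2, and rose by a log2 fold change of 0.99 (adjusted p = 0.00284). SNORD100 had counts of 5, 13 and 18 in sh-Control, 31, 32 and 24 in Sh-DDX41_1 and 5, 6 and 4 in Sh-DDX41_2, and rose by a log2 fold change of 1.39 (adjusted p = 0.00385). Both are in RPS12, and both were above sh-Control in every Sh-DDX41_1 library. In RPL17 1 of the pair rose. SNORD58C had counts of 7, 8 and 15 in sh-Control, 21, 34 and 18 in Sh-DDX41_1 and 6, 9 and 12 in Sh-DDX41_2 and rose with Sh-DDX41_1 (log2 fold change 1.40, adjusted p = 0.00725). SNORD58A had counts of 16, 31 and 24 in sh-Control, 24, 31 and 22 in Sh-DDX41_1 and 8, 12 and 11 in Sh-DDX41_2, with a log2 fold change of 0.24 (adjusted p = 0.523) for Sh-DDX41_1 that did not pass the test and one of −1.21 (adjusted p = 0.0186) for Sh-DDX41_2 that did. The difference between SNORD58A and SNORD58C was not tested.

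Among other protein-coding hosts, HSPA8, the constitutive HSC70 chaperone, holds 3 copies of U14, 1 of which rose with Sh-DDX41_1. SNORD14E had counts of 8, 2 and 6 in sh-Control, 58, 68 and 41 in Sh-DDX41_1 and 3, 7 and 3 in Sh-DDX41_2. Its log2 fold change with Sh-DDX41_1 was 3.48 (SE 0.373, adjusted p = 2.8e-06). SNORD14C had counts of 30, 34 and 31 in sh-Control, 35, 58 and 30 in Sh-DDX41_1 and 17, 13 and 17 in Sh-DDX41_2, with a log2 fold change of 0.50 (adjusted p = 0.141) for Sh-DDX41_1 that did not pass the test and one of −1.02 (adjusted p = 0.026) for Sh-DDX41_2 that did. SNORD14D, with counts of 24, 21 and 34 in sh-Control, 27, 22 and 22 in Sh-DDX41_1 and 18, 11 and 14 in Sh-DDX41_2, had a log2 fold change of −0.02 (adjusted p = 0.958) for Sh-DDX41_1, which did not pass, and fell, at −0.88 (adjusted p = 0.0437) with Sh-DDX41_2. Comparing members of the same host within a library, the mean log2 ratio of SNORD14E to SNORD14C counts (0.5 added to each) was −2.64 ± 1.02 (SD, n = 3) in sh-Control, 0.46 ± 0.247 in Sh-DDX41_1 and −1.83 ± 0.851 in Sh-DDX41_2. Sh-DDX41_1 did not overlap with either other group (exact permutation test, two-sided p = 0.1, the smallest that 3 against 3 libraries allow). Such ratios were compared for 11 pairs in 33 comparisons, 15 of which reached this p, and no value adjusted over them went under 0.22. The first member of each pair was picked for its small adjusted p in these same libraries. SNORD14E was also tested only because of the Sh-DDX41_1 libraries. The choice thus fixed in part that such ratios separated. HSPA8 itself differed by −0.06 (adjusted p = 0.433) and −0.39 (adjusted p = 0.00037) on the log2 scale.

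In C19orf48 the SNORD88 copies were likewise set against each other. SNORD88C had counts of 5, 18 and 9 in sh-Control, 103, 85 and 61 in Sh-DDX41_1 and 4, 4 and 5 in Sh-DDX41_2, a log2 fold change of 3.07 (SE 0.335, adjusted p = 3.4e-06) with Sh-DDX41_1. SNORD88B had counts of 13, 34 and 21 in sh-Control, 33, 34 and 27 in Sh-DDX41_1 and 22, 19 and 16 in Sh-DDX41_2, and its log2 fold change of 0.59 did not pass the test (adjusted p = 0.133). SNORD88A, with counts of 7, 6 and 3 in sh-Control, 14, 11 and 12 in Sh-DDX41_1 and 12, 5 and 4 in Sh-DDX41_2, rose by a log2 fold change of 1.32 (adjusted p = 0.0317). The mean log2 ratio of SNORD88C to SNORD88B was −1.12 ± 0.204 in sh-Control, 1.37 ± 0.238 in Sh-DDX41_1 and −2.01 ± 0.380 in Sh-DDX41_2, with none of the 3 groups overlapping (exact permutation p = 0.1 for each pair of groups, two-sided). Both copies are 91 bases long, and SNORD88B had more counts in sh-Control and Sh-DDX41_2, SNORD88C in Sh-DDX41_1. SNORD88C was picked for its small adjusted p and tested only because of the Sh-DDX41_1 libraries. That choice fixed in part that its ratio separated. How reads that fit several copies were counted is not stated, so the split between copies is uncertain for both families.

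**Figure D2:**
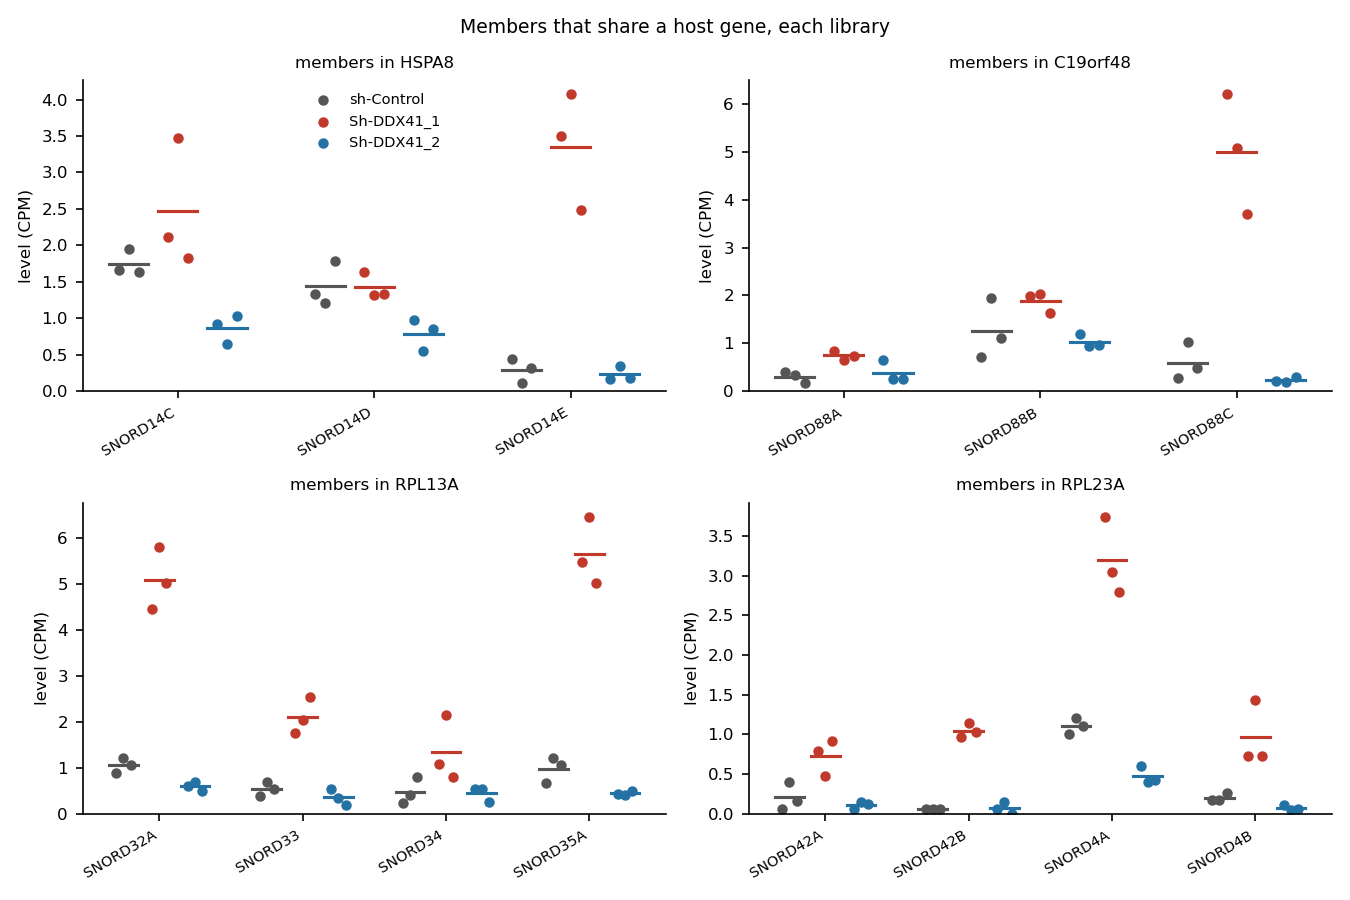
Level (CPM) of the members of HSPA8, C19orf48, RPL13A and RPL23A in each library (points; bars are the means of 3 libraries) for sh-Control, Sh-DDX41_1 and Sh-DDX41_2. In HSPA8 and C19orf48 only SNORD14E and SNORD88C stand far above the other groups with Sh-DDX41_1, the libraries of SNORD88A also without overlap, while in RPL13A and RPL23A all members but SNORD34 lie above the other groups without overlap.

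TAF1D, a subunit of the RNA polymerase I factor SL1, holds SNORD6 and SNORD5, guides for large-subunit rRNA. SNORD6 had counts of 9, 12 and 11 in sh-Control, 24, 33 and 30 in Sh-DDX41_1 and 8, 5 and 5 in Sh-DDX41_2, and its 3 groups did not overlap. Its log2 fold change came to 1.56 (SE 0.3, adjusted p = 0.00061) for Sh-DDX41_1 and −0.84 (adjusted p = 0.14) for Sh-DDX41_2, the latter not past the test. SNORD5 had counts of 31, 48 and 46 in sh-Control, 119, 102 and 89 in Sh-DDX41_1 and 56, 39 and 55 in Sh-DDX41_2, a log2 fold change of 1.44 (adjusted p = 8.9e-05) with Sh-DDX41_1. The ratio of SNORD6 to SNORD5 overlapped between sh-Control and Sh-DDX41_1 and was lower in Sh-DDX41_2 than in sh-Control without overlap (−2.97 against −1.90, exact permutation p = 0.1, two-sided).

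NOP56, a core protein of box C/D particles, is itself a host. SNORD110 had counts of 21, 22 and 29 in sh-Control, 64, 66 and 29 in Sh-DDX41_1 and 18, 28 and 27 in Sh-DDX41_2, and rose by a log2 fold change of 1.27 (adjusted p = 0.00314) with Sh-DDX41_1. SNORD56 had counts of 22, 23 and 21 in sh-Control, 33, 37 and 43 in Sh-DDX41_1 and 26, 18 and 9 in Sh-DDX41_2, and rose by 0.90 (adjusted p = 0.017). NOP56 mRNA differed by 0.03 on the log2 scale (adjusted p = 0.725), so these members lay above their host. In GNL3, which encodes nucleostemin, SNORD19B had counts of 17, 22 and 14 in sh-Control, 30, 45 and 35 in Sh-DDX41_1 and 13, 26 and 15 in Sh-DDX41_2 and rose by 1.17 (adjusted p = 0.00444). SNORD19, with counts of 6, 7 and 9 in sh-Control, 12, 9 and 22 in Sh-DDX41_1 and 12, 5 and 6 in Sh-DDX41_2, had a log2 fold change of 1.08 that did not pass the test (adjusted p = 0.0601) although the groups did not overlap.

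RACK1, a protein of the small ribosomal subunit that is also a signalling scaffold, holds SNORD96A and SNORD95. SNORD96A had counts of 41, 68 and 83 in sh-Control, 120, 124 and 74 in Sh-DDX41_1 and 57, 47 and 38 in Sh-DDX41_2 (log2 fold change 0.86 with Sh-DDX41_1, adjusted p = 0.00781). SNORD95 had counts of 3, 5 and 2 in sh-Control, 15, 17 and 18 in Sh-DDX41_1 and 7, 7 and 12 in Sh-DDX41_2 (log2 fold change 2.41, adjusted p = 0.00055). SNORD95 and SNORD72 were the only members whose Sh-DDX41_2 libraries all lay above sh-Control, and for SNORD95 the log2 fold change of 1.33 did not pass the test (adjusted p = 0.0736). In C6orf48, SNORD52 had counts of 13, 10 and 19 in sh-Control, 18, 47 and 26 in Sh-DDX41_1 and 19, 12 and 13 in Sh-DDX41_2 and rose by 1.24 (adjusted p = 0.013). SNORD48 had counts of 11, 15 and 24 in sh-Control, 37, 24 and 14 in Sh-DDX41_1 and 18, 9 and 2 in Sh-DDX41_2, with a log2 fold change of 0.71 that did not pass the test (adjusted p = 0.211). C6orf48 itself rose by 1.10 (adjusted p = 1.1e-07), above the value of SNORD48.

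RABGGTB, a subunit of the Rab geranylgeranyl transferase, holds 3 guides of small-subunit rRNA. SNORD45C had counts of 23, 15 and 21 in sh-Control, 48, 35 and 21 in Sh-DDX41_1 and 9, 19 and 10 in Sh-DDX41_2, and rose by a log2 fold change of 0.94 (adjusted p = 0.0271) with overlap between the groups. SNORD45A had counts of 18, 21 and 32 in sh-Control, 28, 16 and 18 in Sh-DDX41_1 and 9, 28 and 19 in Sh-DDX41_2, with overlap in all 3 comparisons and a log2 fold change of −0.06 (adjusted p = 0.901). In ATP5F1B, SNORD59B had counts of 4, 2 and 6 in sh-Control, 6, 6 and 5 in Sh-DDX41_1 and 8, 5 and 4 in Sh-DDX41_2. SNORD59A had counts of 5, 5 and 11 in sh-Control, 4, 2 and 5 in Sh-DDX41_1 and 3, 2 and 4 in Sh-DDX41_2. Both were too low for the main test, and at these counts no change was detectable.

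Among non-coding hosts, SNHG1 showed opposite changes of members on either side of SNORD26. SNORD27, a guide for small-subunit rRNA, had counts of 29, 33 and 36 in sh-Control, 11, 18 and 13 in Sh-DDX41_1 and 22, 32 and 25 in Sh-DDX41_2. The 3 groups did not overlap, with Sh-DDX41_1 lowest, at a log2 fold change of −1.09 (SE 0.276, adjusted p = 0.00457). SNORD27 was the 1 member that fell with Sh-DDX41_1, both against sh-Control and against Sh-DDX41_2 (log2 fold change −0.76, adjusted p = 0.0388). The call against Sh-DDX41_2 was lost with DESeq2 and with no filter on low counts. It was also lost without sh-Control D, Sh-DDX41_1 A or D, or Sh-DDX41_2 B or D. SNORD25, also a guide for small-subunit rRNA, had counts of 37, 61 and 50 in sh-Control, 105, 83 and 78 in Sh-DDX41_1 and 35, 27 and 15 in Sh-DDX41_2, with the reverse order of the first 2 groups. It rose by 0.97 (SE 0.233, adjusted p = 0.00311) with Sh-DDX41_1 and fell with Sh-DDX41_2 (−0.97, SE 0.276, adjusted p = 0.0186). The fall was not called without sh-Control B or Sh-DDX41_2 B or D (log2 fold change −0.94 to −0.75). SNORD26, between them, had counts of 30, 67 and 57 in sh-Control, 44, 50 and 35 in Sh-DDX41_1 and 42, 35 and 30 in Sh-DDX41_2, which overlapped in all 3 comparisons. The mean log2 ratio of SNORD25 to SNORD27 was 0.56 ± 0.278 in sh-Control, 2.64 ± 0.519 in Sh-DDX41_1 and −0.10 ± 0.699 in Sh-DDX41_2, and Sh-DDX41_1 did not overlap with the others (exact permutation p = 0.1, two-sided). This pair was chosen because SNORD25 rose and SNORD27 fell in these same libraries. The choice largely fixed that the ratio separated, so it is a description.

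Of the other SNHG1 members, 4 fell with Sh-DDX41_2, SNORD22, SNORD29, SNORD30 and SNORD31. SNORD22, the U22 RNA of small-subunit rRNA maturation, had counts of 61, 101 and 121 in sh-Control, 84, 96 and 90 in Sh-DDX41_1 and 67, 61 and 45 in Sh-DDX41_2, with a log2 fold change of 0.06 (adjusted p = 0.817) for Sh-DDX41_1 that did not pass the test and −0.73 (adjusted p = 0.0215) for Sh-DDX41_2 that did. SNORD31, a guide for large-subunit rRNA, had counts of 65, 87 and 91 in sh-Control, 108, 110 and 70 in Sh-DDX41_1 and 48, 42 and 35 in Sh-DDX41_2, and fell, at a log2 fold change of −0.98, with Sh-DDX41_2 (adjusted p = 0.00414). SNORD30, of the same kind, had counts of 39, 31 and 37 in sh-Control, 62, 55 and 42 in Sh-DDX41_1 and 20, 23 and 12 in Sh-DDX41_2. The 3 groups of SNORD30 did not overlap, with a log2 fold change of 0.70 (SE 0.223, adjusted p = 0.0177) for Sh-DDX41_1 and −0.98 (SE 0.261, adjusted p = 0.0128) for Sh-DDX41_2. Its rise was not called without sh-Control B (0.64) or Sh-DDX41_1 A (0.58), and its fall without Sh-DDX41_2 D (−0.82). SNHG1 RNA rose by 1.02 (adjusted p = 1.7e-05) with Sh-DDX41_1 and fell with Sh-DDX41_2, at a log2 fold change of −0.73 (adjusted p = 0.00108). SNORD27 thus fell with Sh-DDX41_1 where its host rose.

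**Figure D3:**
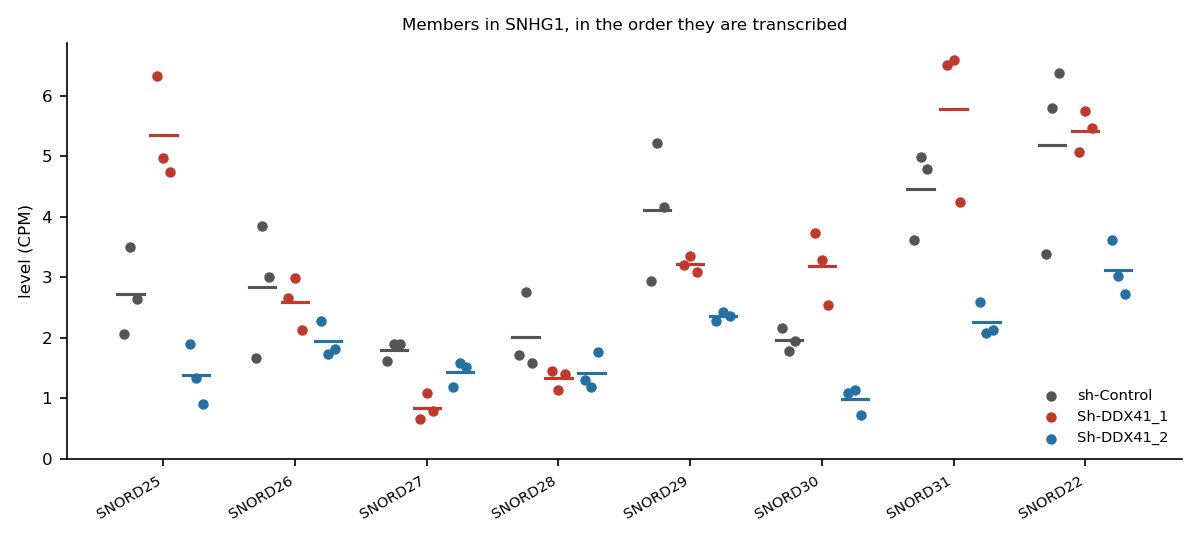
Level (CPM) of the 8 members in SNHG1 in the order of transcription, 1 point per library of sh-Control, Sh-DDX41_1 and Sh-DDX41_2, with bars at the group means. SNORD27 is lowest with Sh-DDX41_1 while SNORD25 and SNORD30 are highest there, and the groups of these 3 members do not overlap.

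GAS5, a non-coding RNA of growth arrest, holds 10 members, of which 9 were tested and 6 rose with Sh-DDX41_1. SNORD74 had counts of 9, 11 and 8 in sh-Control, 37, 42 and 40 in Sh-DDX41_1 and 13, 7 and 9 in Sh-DDX41_2, a log2 fold change of 2.20 (SE 0.297, adjusted p = 2.7e-05) with Sh-DDX41_1, and was tested only because of those libraries. SNORD47, a guide for large-subunit rRNA, had counts of 85, 132 and 160 in sh-Control, 167, 163 and 156 in Sh-DDX41_1 and 92, 80 and 77 in Sh-DDX41_2, and rose by only 0.50 (adjusted p = 0.0277) with Sh-DDX41_1 while falling with Sh-DDX41_2 (−0.61, adjusted p = 0.0262). SNORD80 had counts of 57, 91 and 97 in sh-Control, 138, 125 and 101 in Sh-DDX41_1 and 60, 61 and 50 in Sh-DDX41_2, and rose by 0.70 (adjusted p = 0.00569) with Sh-DDX41_1. The ratio of SNORD74 to SNORD47 was higher in Sh-DDX41_1 than in the other groups without overlap (mean log2 ratio −2.02 ± 0.123 against −3.65 ± 0.544 in sh-Control and −3.08 ± 0.326 in Sh-DDX41_2, exact permutation p = 0.1, two-sided). The choice of SNORD74 for its small adjusted p fixed this separation in part. GAS5 RNA rose by 1.09 (adjusted p = 2.4e-07) with Sh-DDX41_1, more than SNORD47 and less than SNORD74.

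SNHG14, in the imprinted Prader-Willi region, holds SNORD109A and 9 SNORD116 copies, which have no known rRNA target. SNORD116-4 had counts of 41, 49 and 54 in sh-Control, 31, 31 and 32 in Sh-DDX41_1 and 38, 55 and 46 in Sh-DDX41_2. All its Sh-DDX41_1 libraries lay under the other groups, but the log2 fold change of −0.48 did not pass the test (adjusted p = 0.0709). SNORD116-22 had counts of 22, 16 and 23 in sh-Control, 17, 11 and 8 in Sh-DDX41_1 and 9, 20 and 7 in Sh-DDX41_2, which overlapped in all comparisons. The copies are closely related, which leaves the split of reads between them uncertain, and SNHG14 itself was not analysed here.

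Smaller non-coding hosts gave mixed values. In ZFAS1, SNORD12 had counts of 10, 16 and 9 in sh-Control, 36, 42 and 9 in Sh-DDX41_1 and 11, 13 and 11 in Sh-DDX41_2 (log2 fold change 1.43 with Sh-DDX41_1, adjusted p = 0.0168, with overlap). SNORD12B had counts of 7, 13 and 9 in sh-Control, 37, 25 and 16 in Sh-DDX41_1 and 4, 11 and 4 in Sh-DDX41_2 (log2 fold change 1.54, adjusted p = 0.00539). Both rose, as did ZFAS1 itself (1.36 on the log2 scale, adjusted p = 2.9e-08). In LRRC75A-AS1, SNORD65, a guide for small-subunit rRNA, had counts of 7, 17 and 14 in sh-Control, 34, 40 and 34 in Sh-DDX41_1 and 11, 19 and 11 in Sh-DDX41_2 and rose by 1.62 (adjusted p = 0.0006). SNORD49A, with counts of 13, 28 and 25 in sh-Control, 28, 37 and 23 in Sh-DDX41_1 and 16, 13 and 6 in Sh-DDX41_2, differed by 0.54 (adjusted p = 0.19), which did not pass the test. SNORD93, a guide for small-subunit rRNA in SNHG26, had counts of 6, 7 and 5 in sh-Control, 21, 21 and 16 in Sh-DDX41_1 and 1, 2 and 0 in Sh-DDX41_2. Its 3 groups did not overlap, with a log2 fold change of 1.79 (SE 0.387, adjusted p = 0.00145) for Sh-DDX41_1. From 3 against 18 counts, its CPM ratio of Sh-DDX41_2 to sh-Control was 0.165 (95% exact interval 0.0310 to 0.563, counting error only, edgeR adjusted p = 0.0179). Leaving out sh-Control B, Sh-DDX41_2 A or Sh-DDX41_2 D each removed it from the calls.

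In SNHG5, SNORD50B had counts of 30, 39 and 55 in sh-Control, 79, 63 and 87 in Sh-DDX41_1 and 32, 27 and 29 in Sh-DDX41_2 and rose by a log2 fold change of 1.02 (adjusted p = 0.00161). Its neighbour SNORD50A, too low for the main test, had counts of 1, 4 and 6 in sh-Control, 13, 10 and 7 in Sh-DDX41_1 and 2, 0 and 2 in Sh-DDX41_2, and passed with the filter of 30 counts over the 9 libraries (log2 fold change 1.55, adjusted p = 0.0449). Both were thus higher with Sh-DDX41_1. In SNHG16, SNORD1C had counts of 3, 7 and 3 in sh-Control, 20, 13 and 4 in Sh-DDX41_1 and 3, 9 and 4 in Sh-DDX41_2 (log2 fold change 1.61 with Sh-DDX41_1 under the same filter, adjusted p = 0.0418). SNORD1A had counts of 6, 5 and 3 in sh-Control, 9, 8 and 11 in Sh-DDX41_1 and 1, 0 and 0 in Sh-DDX41_2, and fell with Sh-DDX41_2 under that filter (adjusted p = 0.0167). From 1 against 14 counts its CPM ratio was 0.0705 (95% exact interval 0.00167 to 0.463, counting error only).

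Host RNA was compared with the members it carries. Of the 52 hosts 46 were tested, and 31 rose and 5 fell with Sh-DDX41_1 (median log2 fold change 0.48), against 23.7% and 24.1% of all genes. With Sh-DDX41_2, 4 rose and 9 fell (median 0.09), against 11.6% and 13.4%. Of the 100 members with a tested host, 73 changed by more than their host with Sh-DDX41_1 and 27 by less, with a median difference of 0.63 on the log2 scale. The ratio of member to host was higher without overlap with sh-Control for 38 members and lower for 11, a measure with no background of other genes. With Sh-DDX41_2, 28 lay above and 72 under their host (median difference −0.37), and the ratio was higher without overlap for 2 and lower for 31. Across the 100 members, which share hosts and libraries, member and host log2 fold changes had a Pearson r of −0.06 and a Spearman rho of −0.05 with Sh-DDX41_1, and 0.11 and 0.09 with Sh-DDX41_2. The hosts LRRC75A-AS1, SNHG14, SNHG25 and SNHG26 had no row under these names, EIF4A1 was at 0 counts in every library and DDX39B at 0 to 6, both inside annotated readthrough genes. How reads over overlapping genes were counted is not stated.

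**Figure D4:**
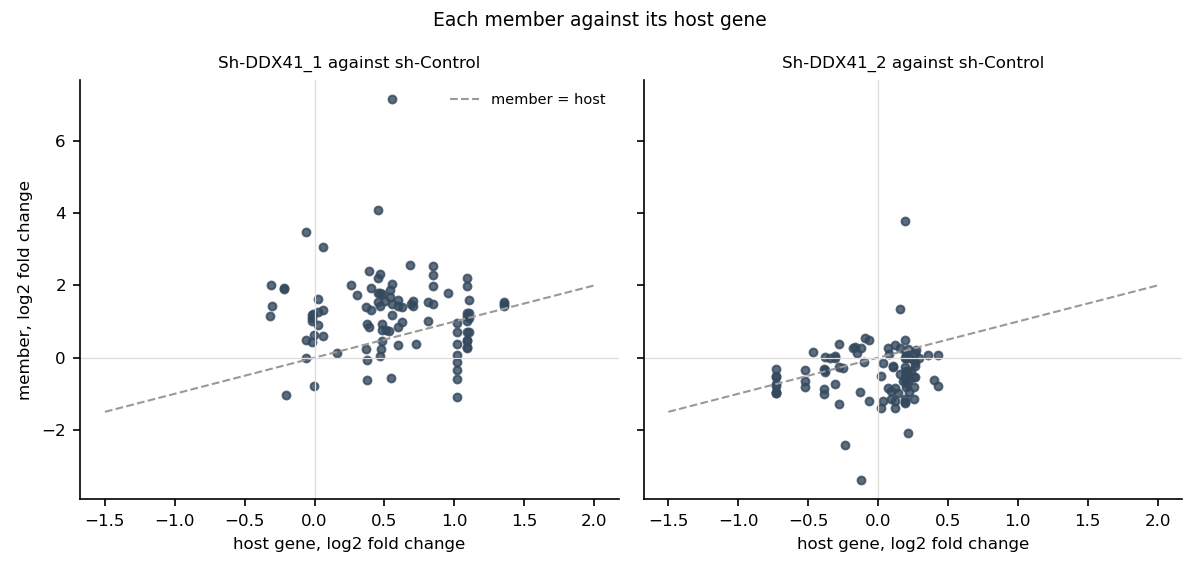
Log2 fold change of each of 100 members (vertical) against that of its host gene (horizontal) for Sh-DDX41_1 and Sh-DDX41_2 against sh-Control, with the line of equal change. With Sh-DDX41_1 73 points lie above the line and with Sh-DDX41_2 72 lie under it; the fitted value of SNORD72 depends on the prior count.

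SNORA rows moved in the same direction with Sh-DDX41_1, while few rows of other small RNAs could be tested. Summed over all 117 members, box C/D counts were 114, 163 and 154 CPM in sh-Control, 262, 273 and 231 in Sh-DDX41_1 and 109, 99.3 and 97.7 in Sh-DDX41_2 (A, B and D). The Sh-DDX41_1 sum was 1.78 times and the Sh-DDX41_2 sum 0.710 times that of sh-Control, and no groups overlapped. Of the 107 SNORA rows, the box H/ACA snoRNAs that guide pseudouridylation, 44 were tested, and 26 rose with Sh-DDX41_1 (23.7% of all genes did). SNORA rows that passed the filter only through the Sh-DDX41_1 libraries had to be higher there, and they were not counted apart. With Sh-DDX41_2, 3 of the 44 fell, SNORA24, SNORA41 and SNORA70, and 0 rose, against 13.4% and 11.6% of all genes. The summed CPM of all SNORA rows was 65.8 ± 11.3, 124 ± 11.3 and 54.5 ± 2.70 in the 3 groups, a ratio of 1.89 for Sh-DDX41_1. The RNU rows, taken by symbol alone and so not of a single RNA class, summed to 6.20 ± 1.82, 14.3 ± 2.18 and 4.08 ± 0.814 CPM. On the list that holds them, the RNY rows and single small RNA genes, 8 genes were tested and 1, RNU105A, rose. The SCARNA rows, small RNAs of Cajal bodies, summed to 4.11 ± 0.740, 4.74 ± 0.696 and 3.05 ± 0.372 CPM, with overlap between sh-Control and Sh-DDX41_1, and 1 of 2 tested, SCARNA10, rose. By contrast, 7SK RNA (RN7SK) had 8.66, 4.82 and 18.4 CPM in sh-Control and 8.74, 13.4 and 28.4 in Sh-DDX41_1, which overlapped, as did the signal recognition particle RNA RN7SL1, with 49.8 CPM in library D of Sh-DDX41_1 and 2.71 and 10.9 in A and B. The box C/D sum in that library D was the lowest of its group. The part of RNAs that lack a poly(A) tail in the box C/D result was not tested.

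**Figure D5:**
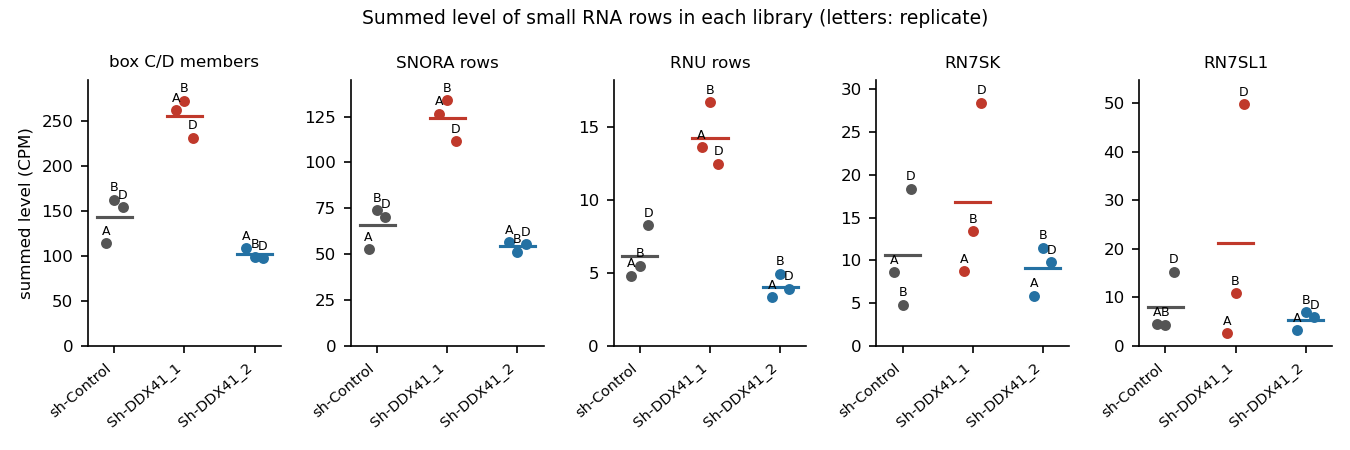
Summed level (CPM, linear axes from 0) of the 117 box C/D members, the SNORA rows and the RNU rows, and level of RN7SK and RN7SL1, in each library (points with the replicate letter; bars are the means). The box C/D, SNORA and RNU values are higher in every Sh-DDX41_1 library than in any other, while RN7SK and RN7SL1 overlap between groups, with library D of Sh-DDX41_1 highest.

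The proteins that build or process box C/D particles gave changes in both directions. Of 26 genes on this list, all tested, 5 rose with Sh-DDX41_1 (AQR, NHP2L1, NUFIP1, PARN and ZNHIT3) and 9 fell, against 23.7% and 24.1% of all genes, with a median log2 fold change of −0.04. NHP2L1 encodes the 15.5K core protein, AQR an intron-binding helicase, and NUFIP1 and ZNHIT3 are assembly factors. With Sh-DDX41_2, 2 rose (AQR and XRN1) and 12 fell (median −0.17), against 11.6% and 13.4% of all genes. EXOSC10, the nuclear exosome exonuclease that trims snoRNA ends, had log2 fold changes of −0.36 (adjusted p = 0.00335) with Sh-DDX41_1 and −0.78 (adjusted p = 2.2e-05) with Sh-DDX41_2. HSP90AA1, a chaperone of particle assembly, changed by −0.43 (adjusted p = 0.00014), and the exosome subunit EXOSC2 by −0.44 (adjusted p = 0.00027) with Sh-DDX41_1. NOP56 fell with Sh-DDX41_2, at a log2 fold change of −0.38 (adjusted p = 0.00032).

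Length and position were set against the change as descriptions. The members had a median length of 77 bases (range 60 to 699), and Spearman's rho between length and log2 fold change was −0.05 with Sh-DDX41_1 (n = 115 members with a host intron). Of these, 49 ended 60 to 90 bases before the downstream exon, with a median log2 fold change of 1.24, against 1.29 for 30 members at 91 to 200 bases and 0.82 for 32 farther away. Some host transcripts retain the intron, and 70 members lay within an exon of at least 1 annotated host transcript (median 0.93), while 46 lay in none (median 1.36). With Sh-DDX41_2 these medians were −0.46 and −0.35. Members of 1 host share its RNA, so these values were not tested.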

How the data were processed

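The authors sequenced poly(A)-selected RNA of MOLM13 cells in 9 libraries, 3 per group. The labels name a stranded kit and the methods of the study a kit that keeps no strand, so members that overlap genes on the opposite strand are uncertain. The submitters' processing notes name FastQC 0.11.7, HISAT2 2.0.5 and featureCounts 1.5.2 and the builds hg38 and mm10. The annotation, the strand setting and the handling of reads that map to several or overlapping genes are not given in the sources used here. The deposited table held raw counts per gene, with 1 column per library and 0 columns left unmapped, and was analysed as counts.

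The members and gene lists were chosen with earlier results of these data known. Libraries were scaled by TMM and fitted together in edgeR 4.0.16 (R 4.3.3; quasi-likelihood test, filterByExpr with a minimum count of 10, 12712 genes tested). P-values were two-sided, adjusted by the Benjamini-Hochberg method over all genes of a comparison and called under 0.05. CPM values carry the SD over 3 libraries. Libraries held 16385238 to 20510032 counts, and no member reached 170 counts in a library, under which counting error exceeds the biological variation over all genes. The scripts were tested on simulated data. Positions came from GENCODE 29 for 102 members and from RefSeq for 15. Named were the 20 members with the smallest adjusted p over the 3 comparisons among those called with a mean of at least 1 CPM in the higher group, the 2 members with the most counts in each host of 2 or more members, those at the limit of the rule, and the 4 called genes of the lists with the smallest adjusted p. Others in the text were chosen after their values were seen. The result of 1 host gene is not reported here. The alternatives were DESeq2 1.42.0, limma 3.58.1 voom, other scaling and filters, the 6 libraries compared, a replicate block and each library left out. No 2 libraries of a group agreed within sampling noise (chi-square of at least 2.45 per degree of freedom).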

Additional observations from a re-analysis of the deposited data

Results flagged for a closer look

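The response of 20 members differed between the hairpins by the test of Sh-DDX41_1 against Sh-DDX41_2 itself, which shares its libraries with the other comparisons. Log2 differences over 3 were found for SNORD88C (4.37), SNORD93 (4.26), SNORD14E (3.79), SNORD42B (3.73), SNORD35A (3.68), SNORD72 (3.37), SNORD32A (3.08) and SNORD46 (3.04). Those of SNORD4A (2.74), SNORD33 (2.52), SNORD6 (2.40), SNORD55 (2.30), SNORD74 (2.17), SNORD14B (2.15) and SNORD38B (2.14) lay between 2 and 3, and those of SNORD25 (1.94), SNORD54 (1.83), SNORD30 (1.68), SNORD68 (1.36) and SNORD36A (1.30) under 2. SNORD88C, SNORD93, SNORD14E, SNORD42B, SNORD72, SNORD46, SNORD33, SNORD6 and SNORD74 passed the filter only through the Sh-DDX41_1 libraries. They had to be higher there to be tested. The value of SNORD93 rests on 58 against 3 counts, a CPM ratio of 21.4 (95% exact interval 6.98 to 107, counting error only). That of SNORD42B rests on 52 against 4 counts and that of SNORD72 on 50 against 5, without an interval. In this comparison 70 members passed the test. The 20 were those with the smallest adjusted p over the 3 comparisons at a mean of at least 1 CPM in the higher group, so the choice fixed in part that they passed, and that each lay higher in 3 of 3 Sh-DDX41_1 libraries than in any Sh-DDX41_2 library is a description.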

How the results depend on the processing

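The counts of members that passed the test moved by more than 1.5 times in few settings. With at least 10 counts in every library as the filter, 21 members passed for Sh-DDX41_1 against sh-Control and 27 between the hairpins, since fewer members were tested, and with a fold change of 2 as well, 5 passed for Sh-DDX41_2. Leaving out 1 library gave 54 to 69, 4 to 22 and 67 to 75 members for Sh-DDX41_1, Sh-DDX41_2 and between the hairpins. For Sh-DDX41_2 against sh-Control, log2 fold changes that had not passed the test turned sign for 4 members, and the cause was not tested. SNORD74 ranged from −0.23 (without Sh-DDX41_2 replicate A; −0.10 without sh-Control replicate D) to 0.28, SNORD14E from −0.75 to 0.10 (without sh-Control replicate A), SNORD68 from −0.0064 (without sh-Control replicate B) to 0.42, and SNORD42B from −0.80 (without Sh-DDX41_2 replicate B) to 0.83. Over 20 members and the 11 settings run for single members (other scalings and each library left out), 635 log2 fold changes kept direction and call, 19 lost the call, 1 gained it (SNORD88C for Sh-DDX41_2, −1.63 without sh-Control replicate A) and 5 turned. The lost calls concerned SNORD30 and, for Sh-DDX41_2, SNORD25, SNORD4A, SNORD35A, SNORD93 and SNORD36A. Deviations of libraries with the same letter correlated at −0.0574 to 0.243, so the letters were not taken to pair libraries. With the letter as a replicate block, 61, 16 and 70 members passed, all of them also without this replicate block, and the block changed 2 calls. At under 170 counts per library, small changes were not detectable.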
